A study of Mus musculus with 6 samples.

Results

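The 9 genes studied here mark mesothelial or epithelial cells, and were followed in cultures of CD31-positive cells from mouse liver. They are the keratins Krt7, Krt8, Krt18 and Krt19, the junction and adhesion genes Cldn15 and Epcam, and the mesothelial genes Msln, Wt1 and Upk3b. They were taken by gene symbol, and all 9 were found among the 13595 genes of the deposited table. Cldn15 was chosen by its normalized read counts in these same libraries, which differ strongly between the groups, so its difference is given as a description with no test. The other 8 were taken as markers of cell types, with earlier results of these data known.

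Liver cells of C57BL6/J mice aged 4 weeks were selected for CD31, an endothelial surface protein, and cultured. Every one of the 6 libraries was made from cells given 100 µM indoxyl sulfate, a ligand of the aryl hydrocarbon receptor (AHR), together with hypoxia and nutrient deprivation for 6 hours. There are 2 groups of 3 libraries, labelled male or female, and both use the replicate numbers 4, 5 and 6. The series asks how sex bears on AHR activation in hypoxic endothelial cells. Vehicle (DMSO) controls were not analysed here. The labels do not say whether replicates are separate mice, isolations or wells, so p-values may measure technical spread only.

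Keratins are the intermediate filament proteins of epithelia, and a filament needs a type I keratin paired with a type II keratin. Krt8 (type II) and Krt18 (type I) are the usual pair of simple epithelia and the keratins of hepatocytes, while Krt7 (type II) and Krt19 (type I) are added in bile duct cells. Mesothelial cells, which cover the liver surface and line the body cavity, carry these keratins together with vimentin, Wt1, Msln and Upk3b, and are known to give rise to myofibroblasts in injured liver.

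The sequences just before the start sites of 4 of the genes are shown because these genes form contrasting pairs. Krt8 and Krt18 are neighbours on chromosome 15 that differed in opposite directions, and Cldn15 and Upk3b, both on chromosome 5, stood near 0 in opposite groups. Each window holds the 250 bases before the start site from the RefSeq promoter table (GRCm38.p6), which had a window for 6 of the 9 genes. Capitals mark every match, on either strand, to 6 short motifs: the AHR core GCGTG, the hypoxia-inducible factor core ACGTG, the GC box GGGCGG, the TATA box TATAAA, the AP-1 motif TGANTCA and the TEAD motif GGAATG.
Krt8 promoter, chr15:102004343-102004592, strand -: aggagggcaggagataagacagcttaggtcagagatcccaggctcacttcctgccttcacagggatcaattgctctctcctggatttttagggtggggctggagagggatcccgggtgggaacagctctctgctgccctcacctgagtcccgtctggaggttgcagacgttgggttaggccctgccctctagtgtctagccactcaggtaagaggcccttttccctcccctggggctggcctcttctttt
Krt18 promoter, chr15:102027966-102028215, strand +: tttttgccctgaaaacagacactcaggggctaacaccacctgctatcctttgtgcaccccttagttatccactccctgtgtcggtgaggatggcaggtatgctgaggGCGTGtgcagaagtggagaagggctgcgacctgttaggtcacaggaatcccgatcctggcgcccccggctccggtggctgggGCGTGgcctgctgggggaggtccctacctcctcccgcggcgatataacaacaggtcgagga
Cldn15 promoter, chr5:136967619-136967868, strand +: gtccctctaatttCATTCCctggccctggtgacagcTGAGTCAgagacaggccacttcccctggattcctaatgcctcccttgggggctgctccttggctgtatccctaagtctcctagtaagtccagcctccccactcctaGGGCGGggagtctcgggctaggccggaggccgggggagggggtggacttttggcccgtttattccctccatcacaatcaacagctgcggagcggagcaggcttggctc
Upk3b promoter, chr5:136038246-136038495, strand +: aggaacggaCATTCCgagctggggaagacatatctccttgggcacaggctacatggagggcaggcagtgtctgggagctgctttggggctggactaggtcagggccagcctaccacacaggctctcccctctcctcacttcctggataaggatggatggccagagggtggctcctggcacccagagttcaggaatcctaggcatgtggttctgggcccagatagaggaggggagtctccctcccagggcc
The Krt18 window held 2 copies of the AHR core, at 143 and 61 bases before the start, and the Krt8 window held no match to any of the 6 motifs. The AHR core was present in 28.2% of all 32851 windows of this length. The Cldn15 window held a GC box (32.7% of all windows), an AP-1 match (6.75%) and a TEAD match (12.6%), and the Upk3b window held a TEAD match alone. No window of these 4 held the hypoxia core (16.6% of all windows) or the TATA box (12.4%). No match overlapped another in these windows, although the AHR and hypoxia cores share their last 4 bases. A match to so short a motif describes the letters only.

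Values are normalized read counts, in which the reads of each library are multiplied by 1 scaling factor. Recovered reads ranged from 22303270 to 31189363 per library. Male replicate 4 stood apart from the other libraries of its group, with a chi-square per gene of 43.6 and 45.4 against 5.98 between replicates 5 and 6 and at most 9.59 within the group labelled female. Of 12568 genes with a value of 1 or more in 3 or more libraries, tested with limma on log2(value + 1), 69.3% had a Benjamini-Hochberg adjusted p under 0.05, and the median log2 difference, which is the mean of log2(value + 1) in the group labelled female minus that in the group labelled male, was 0.01. Xist lay between 0.124 and 0.458 normalized read counts in the libraries labelled male and between 234 and 324 in those labelled female. The Y-linked genes Ddx3y, Uty, Kdm5d and Eif2s3y were read in the libraries labelled female as well, between 17.6 and 57.7, against 23.7 to 76.3 in those labelled male. Ddx3y and Uty were not called by limma, and Kdm5d (log2 difference -0.83) and Eif2s3y (-0.94) were called lower in the libraries labelled female. Reads of these genes there go against the label, so each direction given here rests on labels in doubt. Pecam1, which encodes CD31, was read in every library, from 391 to 423 in the group labelled male and from 73.5 to 74.5 in the group labelled female.

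The mesothelial genes Msln, Wt1 and Upk3b were all higher in the libraries labelled female, the type II keratins Krt7 and Krt8 were higher there too, and the type I keratins Krt18 and Krt19 were lower. Cldn15 was near 0 in the libraries labelled female, and Epcam held 3 reads or fewer in 5 of the 6 libraries. Of the 8 genes other than Cldn15, 7 passed the filter on low values. Wt1 and Upk3b passed it through the libraries labelled female only, where they are high, so they had to differ and are described with no p. Of the other 5, 3 were called higher and 2 lower, in a table where 69.3% of tested genes were called (34.6% higher and 34.6% lower). The groups also did not overlap for these 5, where 74.1% of all tested genes had groups that did not overlap, 37.1% higher and 37.0% lower. Cldn15, Wt1 and Upk3b have groups that do not overlap either, which their choice or the filter fixes. In bulk RNA, fewer cells of a type and less RNA per cell cannot be told apart.

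**Figure D1:**
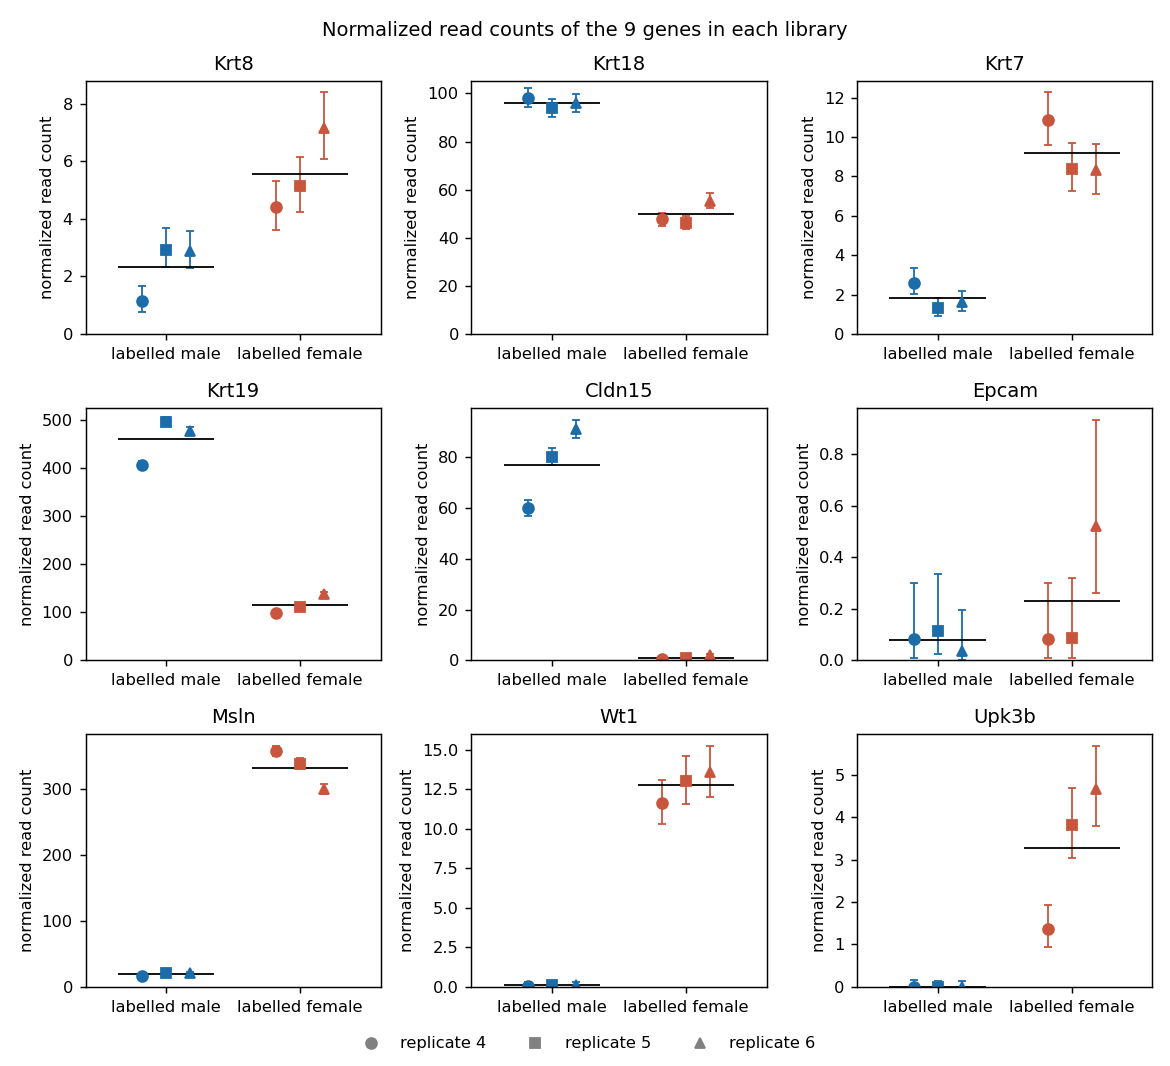
Normalized read count (y axis, linear, from 0, a scale of its own for each gene) of the 9 genes in the 3 libraries labelled male (blue) and the 3 labelled female (red), with the marker shape giving the replicate number, bars the 95% Poisson interval of the reads, and the line the group mean. Krt18, Krt19 and Cldn15 lie higher in the libraries labelled male, Krt7, Krt8, Msln, Wt1 and Upk3b in those labelled female, and Epcam overlaps.

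Msln encodes mesothelin, a surface protein of mesothelial cells. It was read at 17.1, 20.5 and 20.6 in the libraries labelled male (replicates 4, 5 and 6) and at 358, 338 and 299 in those labelled female. Each library labelled female was thus far above each labelled male, and Msln was not near 0 in either group. The group means were 19.4 ± 1.97 and 332 ± 29.6 (SD, n = 3), a ratio of 17.1, and the log2 difference was 4.03 (SE 0.09, limma adjusted p 2.04e-08). It was number 21 by size of increase among the 12568 tested genes.

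Wt1 encodes a zinc finger transcription factor of mesothelium and its precursors. Its reads numbered 2, 3 and 3 in the libraries labelled male and 281, 295 and 286 in those labelled female. On the normalized scale this is 0.101 ± 0.0163 against 12.8 ± 0.990 (SD, n = 3). The pooled reads gave a ratio of 125 (95% interval 63.2 to 291, exact conditional test on the reads, counting error only). The fitted log2 difference of 3.64 (SE 0.11) understates this, since the level in the libraries labelled male is near 0.

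Upk3b encodes uroplakin 3B, a membrane protein of mesothelium. No read of it was found in any library labelled male, which allows up to 3 reads over the group, or a value of 0.0381. The libraries labelled female read 1.37, 3.80 and 4.65, so replicate 4 was well below the others of its group. Measured against 3 reads over the group labelled male, Upk3b was at least 83.9-fold higher in the group labelled female (3.28 ± 1.70, SD, n = 3). Its fitted log2 difference was 2.002 (SE 0.29).

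Krt8 was read at 1.16, 2.94 and 2.90 in the libraries labelled male and at 4.40, 5.13 and 7.17 in those labelled female. The groups did not overlap, and male replicate 4 was the lowest of all libraries. The means were 2.33 ± 1.01 and 5.57 ± 1.44 (SD, n = 3), and the log2 difference was 1.01 (SE 0.25, limma adjusted p 0.00714). Without male replicate 4 the log2 difference was 0.72 (limma adjusted p 0.00339). Of the 50-base words of its transcript, 29.7% also occur in other annotated genes, chiefly the pseudogene Krt8-ps. The Krt8 level is therefore uncertain, by an amount that was not measured. Krt8 also overlaps an opposite-strand long noncoding RNA, Gm36026, over 5.16% of its exon bases, as Krt7 overlaps the antisense gene Gm671 over 1.09%. The strand used in counting is not given in the sources used here.

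Krt7, the other type II keratin, was read at 2.61, 1.30 and 1.62 in the libraries labelled male and at 10.9, 8.40 and 8.31 in those labelled female. All libraries labelled female were above all labelled male, and in both groups replicate 4 was the highest. The means were 1.84 ± 0.685 and 9.19 ± 1.45 (SD, n = 3), a ratio of 4.98, and the log2 difference was 1.86 (SE 0.18, limma adjusted p 3.66e-05).

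Krt18 held 98.2, 93.8 and 95.9 in the libraries labelled male and 47.6, 46.2 and 55.4 in those labelled female. Among the libraries labelled male its spread was the narrowest of the genes that had reads there, with a coefficient of variation of 2.29%. The means of 96.0 ± 2.20 and 49.7 ± 4.97 (SD, n = 3) gave a log2 difference of -0.94 (SE 0.08, limma adjusted p 1.43e-05).

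Krt19 had the highest level per kilobase of the 4 keratins in every library. It stood at 407, 498 and 478 in the libraries labelled male and at 97.8, 112 and 138 in those labelled female, and the groups did not overlap. The means were 461 ± 47.7 and 116 ± 20.2 (SD, n = 3), so the group labelled male was 3.98-fold higher, and the log2 difference was -1.99 (SE 0.13, limma adjusted p 2.94e-06).

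**Figure D2:**
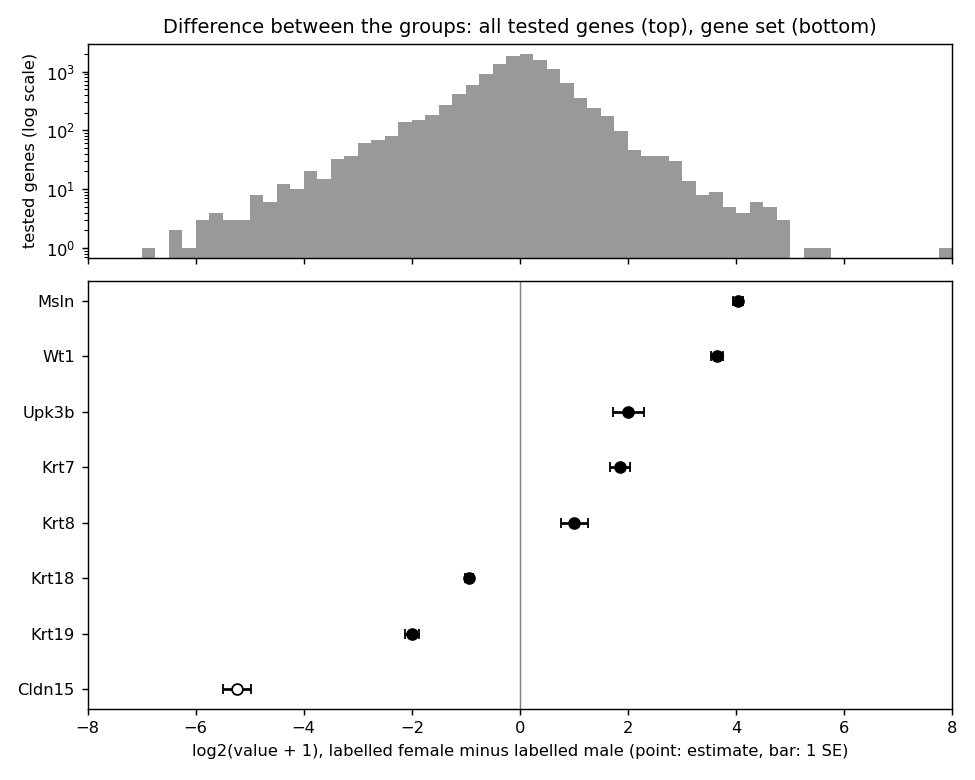
Top, number of tested genes (log scale) by log2 difference, labelled female minus labelled male; bottom, on the same x axis, the estimate with 1 SE for 8 genes of the set. The 5 genes to the right of 0 run from Krt8 at 1.01 to Msln at 4.03, and Krt18, Krt19 and Cldn15 (open circle, shown without a test) lie to the left. Wt1 and Upk3b are likewise shown as a description.

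Type I and type II keratins were thus read at unequal levels, and in unequal proportion in the 2 groups. Per kilobase of transcript, the type I sum (Krt18 and Krt19) was 326, 381 and 370 in the libraries labelled male against a type II sum (Krt7 and Krt8) of 1.23, 1.82 and 1.88. In the libraries labelled female the type I sums were 95.2, 103 and 126 and the type II sums 4.90, 4.67 and 5.69. The ratio of type I to type II per kilobase therefore lay between 197 and 265 in the libraries labelled male and between 19.4 and 22.1 in those labelled female, with no overlap. With coding length in place of transcript length, a choice added after seeing the data, these ranges were 149 to 165 and 10.8 to 14.4. The transcript of Krt7 is 4094 bases long with a coding part of 1371 bases, so its level per kilobase depends strongly on this choice. The partners differed in the same way, with Krt18 per kilobase at 43.5 to 115 times Krt8 in the libraries labelled male and 10.5 to 14.7 times in those labelled female.

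**Figure D3:**
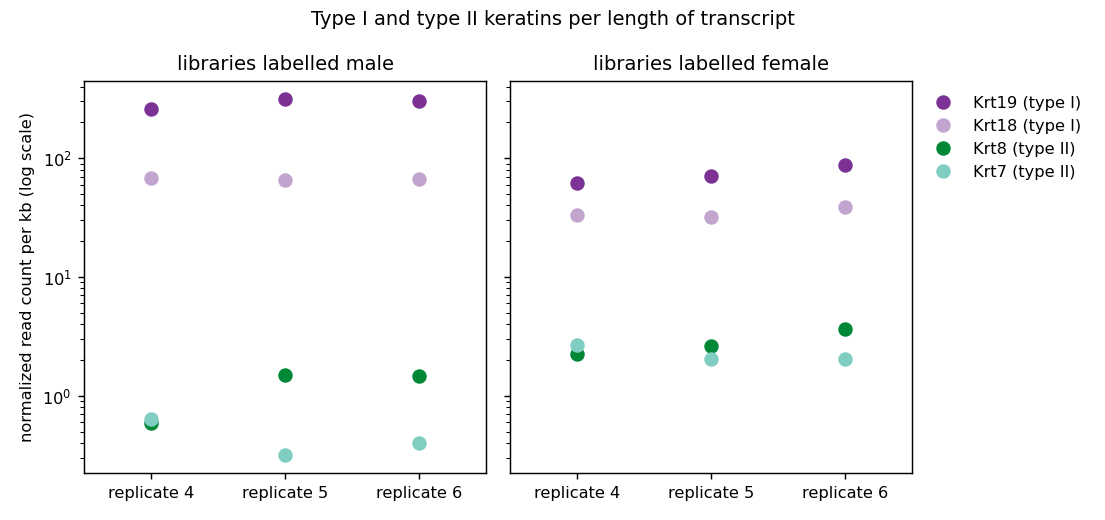
Normalized read count per kilobase of transcript (y axis, log scale) of the 4 keratins in each replicate, for the libraries labelled male (left) and female (right). The type I keratins Krt18 and Krt19 lie above the type II keratins Krt7 and Krt8 in all 6 libraries, by a smaller distance in those labelled female.

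Cldn15 encodes a claudin of tight junctions that forms cation pores in the gut and is also found in mesothelium. It was read at 59.8, 79.96 and 91.0 in the libraries labelled male and at 0.415, 1.02 and 1.95 in those labelled female, the latter being 10, 23 and 41 reads. Each library labelled male was far above each labelled female. The means were 76.9 ± 15.9 and 1.13 ± 0.772 (SD, n = 3), the group labelled male being 68.3-fold higher, or 107-fold without female replicate 6. The fitted log2 difference of -5.24 (SE 0.26) was number 15 by size of decrease among the tested genes. As the gene was selected for this difference, no p is given. Its direction was opposite to that of Msln, Wt1 and Upk3b.

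Epcam encodes an adhesion molecule of epithelia, in liver of bile duct and progenitor cells. Its reads numbered 2, 3 and 1 in the libraries labelled male and 2, 2 and 11 in those labelled female. Only female replicate 6 was above 3 reads, and the groups overlapped. The pooled reads gave a ratio of 2.90 (95% interval 1.06 to 9.13, counting error only), and without that library the ratio of the means was 1.11. Epcam did not pass the filter, and without a filter its log2 difference was 0.17 (limma adjusted p 0.304).

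The order of levels per kilobase also differed between the groups. Part of this was fixed, since Cldn15 was chosen for its difference and Wt1 and Upk3b passed the filter through 1 group only. Among the remaining genes, Msln alone changed its place per kilobase of transcript. In the libraries labelled male the order was Krt19 (292), Krt18 (66.8), Cldn15 (41.6), Msln (8.96), Krt8 (1.19), Krt7 (0.451), Epcam (0.0380), Wt1 (0.0327) and Upk3b (0). Krt8 with Krt7 and Epcam with Wt1 overlapped over the replicates, and the other neighbours in this order did not. In the libraries labelled female it was Msln (153), Krt19 (73.4), Krt18 (34.6), Wt1 (4.13), Krt8 (2.84), Krt7 (2.25), Upk3b (0.928), Cldn15 (0.609) and Epcam (0.113). Here Krt8 with Krt7, Upk3b with Cldn15, and Cldn15 with Epcam overlapped. With coding length the order changed in both groups. Cldn15 (87.8 to 134 per coding kilobase) then lay above Krt18 (73.9 to 77.4) in the libraries labelled male. In those labelled female Krt7 (mean 6.71) lay above Krt8 (3.79) and overlapped no longer with it, and Upk3b (3.96) came to overlap with Krt8. The order of these neighbours therefore rests on the length used. Msln per kilobase was 1.58 to 2.66 times Krt19 in the libraries labelled female and 0.0299 to 0.0314 times in those labelled male.

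Within the groups, the genes did not vary alike. Female replicate 6 had the highest value of its group for 7 of the 9 genes, where it was highest for 40.0% of all tested genes. The exceptions were Krt7 and Msln, which were highest in female replicate 4. Cldn15 was 0.415 (95% Poisson interval 0.199 to 0.763) in female replicate 4 and 1.95 (1.40 to 2.64) in female replicate 6, so these libraries differed beyond counting error. Upk3b was 1.37 (0.943 to 1.92) and 4.65 (3.78 to 5.67) in the same pair of libraries, which likewise do not overlap.

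Male replicate 4 was the lowest of its group for 5 of the 9 genes (45.0% of all tested genes) and the highest for 2 (40.2%). Those 2 were Krt7 and Krt18. For Krt8 it read 1.16 (0.772 to 1.68) against 2.94 (2.32 to 3.67) in male replicate 5. The ratio of Krt7 to Krt8 per kilobase of transcript was 1.08 in male replicate 4 and 0.211 and 0.268 in the others of its group. The same library held more RNA of the contractile gene Acta2, at 134 against 56.4 and 45.9 in replicates 5 and 6. The part of this in the keratin values was not tested.

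**Figure D4:**
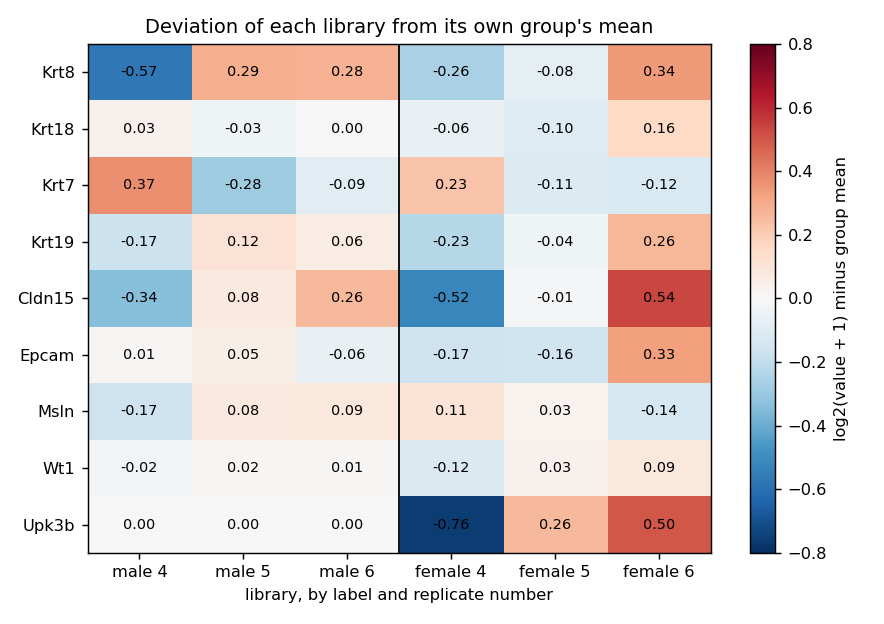
Deviation of log2(value + 1) in each library (columns) from the mean of its own group, for the 9 genes (rows); red is above and blue below the group mean, and the number in each cell is the deviation. Upk3b in female replicate 4 (-0.76) and Krt8 in male replicate 4 (-0.57) are the lowest cells, and Cldn15 in female replicate 6 (0.54) is the highest.

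Other genes of the same families and cell types were read from the same fit, in lists drawn up with earlier results known, and are described by counts and medians. A gene that reaches 1 in the libraries of 1 group only passed the filter through the group where it is high, so it had to differ, and counts are also given without such genes, a choice added after seeing the data. Shares and medians given for all tested genes still include genes of this kind. Of 24 mesothelial genes outside the 9, 18 were analysed and 15 tested. Gpm6a, Bnc1, Upk1b, Nkain4 and Tbx20 passed through the group labelled female only. Of the other 10, 6 were called higher, 3 lower and 1 was not called, with a median log2 difference of 1.41, against 69.3% called (34.6% in each direction) and a median of 0.01 for all tested genes. With those 5 the counts were 11 higher and 3 lower of 15, and the median 1.43. The largest differences were those of Upk1b (4.51, fixed in direction by the filter), a tetraspanin of the uroplakin family, Pdpn (3.65), the surface glycoprotein podoplanin, and Gata4 (2.80), a transcription factor of mesothelium and its derivatives. Upk1b was read at 0.498, 0.648 and 0.600 in the libraries labelled male and at 29.1, 35.5 and 41.1 in those labelled female. The 3 called lower were Efemp1 (-1.31), Cd200 (-2.80) and Gata6 (-1.36), which were named after their values were seen. The summed level of the list ran from 2064 to 2324 and from 953 to 1245 in the groups labelled male and female, most of it Efemp1. Without Efemp1 it ran from 414 to 420 and from 367 to 406.

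The other keratins of the table were Krt13, Krt20, Krt23, Krt36 and Krt80. All 5 were tested, with 2 called higher and 3 lower, where 69.3% of all tested genes were called (median log2 difference -1.09). Krt20, Krt23 and Krt36 passed the filter through 1 group only and had to differ. The other 2, Krt13 and Krt80, were called in opposite directions. Krt13, a type I keratin, was read at 12.2, 19.5 and 17.97 in the libraries labelled male and 2.32, 2.34 and 2.80 in those labelled female, with a log2 difference of -2.31. Krt20, a type I keratin of gut and urothelium, had a log2 difference of 1.24, and Krt36, a hair keratin, had -1.40. Krt23 (-1.09) and Krt80 (0.62) were named after their values were seen. Krt80, a type II keratin that is the coding neighbour of Krt7 on chromosome 15, had an adjusted p of 0.00213 in limma.

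Of the other 9 claudins, 4 were tested, with 3 called higher and 1 lower, where 69.3% of all tested genes were called (median log2 difference 0.43). Cldn11 and Cldn6 passed the filter through 1 group only and had to differ. Cldn11 was read at 43.7 ± 1.63 in the group labelled male and 0.623 ± 0.239 in the group labelled female (SD, n = 3), a log2 difference of -4.79. Cldn6, a claudin of early epithelia, had 0.0618 ± 0.0382 and 3.37 ± 0.845 (SD, n = 3) and a log2 difference of 2.02. The other 2 were both called higher, Cldn12 with 0.51 and Cldn25, named after its value was seen, with 0.36.

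Partners of keratin filaments, such as other intermediate filament proteins and the linkers that tie filaments to desmosomes, gave 8 called higher and 3 lower of 12 tested, with 15 of 16 analysed (median log2 difference 0.50), where 34.6% of all tested genes were called in each direction. Dsp, the desmosomal linker desmoplakin, had a log2 difference of 2.53, from 0.945 ± 0.128 in the group labelled male to 10.3 ± 0.665 in the group labelled female (SD, n = 3). Plec, the linker plectin, had 1.03, and Ppl, the linker periplakin, had -2.33. Vim, encoding vimentin, was read at 6971 to 7170 in the libraries labelled male and at 4824 to 5107 in those labelled female, with a log2 difference of -0.52 (limma adjusted p 0.000554).

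Markers of other cell types were read beside these, and their counts too stand against 34.6% of all tested genes called in each direction. Of 25 epithelial genes, 12 were analysed and 7 tested, with 4 called higher and 1 lower (median log2 difference 0.95). Of the 5 called, Cldn6, Esrp2, Spint1 and Marveld2 passed the filter through 1 group only and had to differ. Among the other 3 tested, St14 was called higher and Cdh1 and Spint2 were not called, with a median of 0.04. The summed level of all 12 analysed epithelial genes was 12.6 to 13.7 in the libraries labelled male and 26.4 to 30.3 in those labelled female. This sum includes the genes that had to differ. Without St14 it was 9.37 to 11.1 and 15.8 to 18.3. Cdh1, encoding E-cadherin, lay between 0.807 and 1.33 in all 6 libraries, with a log2 difference of 0.04 (limma adjusted p 0.828). The largest differences were those of Cldn6, which the claudins hold too, of Esrp2 (1.70), an epithelial splicing regulator, and of St14 (1.69), the membrane protease matriptase. Spint1 (0.95) and Marveld2 (-0.51), the gene called lower, were named after their values were seen.

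Bile duct cells carry all 4 keratins. Of 15 bile duct genes, 11 were analysed and 7 tested, of which 5 were lower and 2 higher by limma, with a median of -1.07. Sox9, a transcription factor of bile duct and progenitor cells, was at 353 ± 50.8 and 66.3 ± 8.08 in the groups labelled male and female (SD, n = 3), a log2 difference of -2.39. Spp1, which encodes osteopontin, had -1.82, and Cd24a had 1.20 in the opposite direction, as did Slc4a2 (1.12), named after its value was seen. The summed level was 1521 to 2252 and 871 to 1022, but 591 to 644 and 529 to 606, which overlap, without Spp1. The part of these cells in the keratin and Epcam values was not tested.

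Hepatocytes carry Krt8 and Krt18. Alb, encoding albumin, lay between 0.572 and 0.600 in the libraries labelled male and between 0 and 0.0830 in those labelled female, Ttr was at most 0.191, and Cyp3a11 had 0 reads. Of 18 hepatocyte genes, 12 were analysed and 3 tested: Trf (log2 difference -0.70) and Ahsg (-3.08) were called lower and Ass1 (1.51) higher, with a median of -0.70, or 0.41 without Ahsg. Ahsg, which encodes the plasma protein fetuin-A, was read at 5.31, 9.34 and 8.65 in the libraries labelled male, and with 1 read in all in those labelled female, so it passed the filter through 1 group only and had to differ. Among the genes that did not pass the filter, named after their values were seen, Fga and Fgb, encoding fibrinogen chains, held 59 and 75 reads in the group labelled male and 3 reads each in the group labelled female. Serpina1a held 8 and 7 reads, Hnf4a 7 and 7, and Cps1 0 and 4. The summed level was 97.5 to 119 and 80.9 to 90.2, most of it Trf, and without Trf it was 15.3 to 22.9 and 22.9 to 40.2. The part of hepatocyte RNA in the Krt8 and Krt18 values was not tested.

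Of 20 endothelial genes, all analysed, 16 were tested, with 13 called lower and 2 higher, where 34.6% of all tested genes were called in each direction (median log2 difference -2.23). Vwf and Robo4 passed the filter through the group labelled male only and had to differ, and without them 11 were called lower and 2 higher of 14, with the same median. The summed level of all 20 endothelial genes was 3060 to 3103 in the libraries labelled male and 1288 to 1355 in those labelled female. The largest differences were those of Lyve1 (-6.39), a hyaluronan receptor of liver sinusoids and lymphatics, Vwf (-4.71), the von Willebrand clotting factor, and Plvap (-3.99), a protein of endothelial fenestrae. The 2 called higher, Ptprb (3.47) and Eng (0.40), were named after their values were seen. Of 18 stellate and mural genes, 15 were analysed and 14 tested, with 5 called higher and 9 lower (median -1.24). Of these, 2 (Lum and Hand2) passed the filter through 1 group only and had to differ, which leaves 4 higher and 8 lower. The contractile genes Myh11 (5.54), Acta2 (4.57) and Tagln (4.43) had the largest differences, all higher. Among the 9 called lower were the pericyte and fibroblast receptor gene Pdgfrb (-3.13), the collagen gene Col3a1 (-2.47), Rgs5 (-2.17) and Lum (-2.11). These 4 and Hand2 (1.65) and Des (0.70), both higher, were named after their values were seen. The summed level of the 15 analysed stellate and mural genes was 2897 to 3729 in the libraries labelled male and 3509 to 4211 in those labelled female. These ranges overlap. Without Acta2 they were 2840 to 3596 and 1995 to 2324, higher in the libraries labelled male with no overlap. Of 12 macrophage genes, 9 were analysed and 3 tested, with Cd68 (0.48) and Csf1r (0.56) called higher and Cd14 (-0.84) lower, a median of 0.48 and a summed level of 13.0 to 15.8 and 16.1 to 19.0. Ptprc, the pan-leukocyte marker CD45, had 0 reads in the libraries labelled male and a value of at most 0.332 in those labelled female. The part of these cell types in the values of the 9 genes was not tested.

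**Figure D5:**
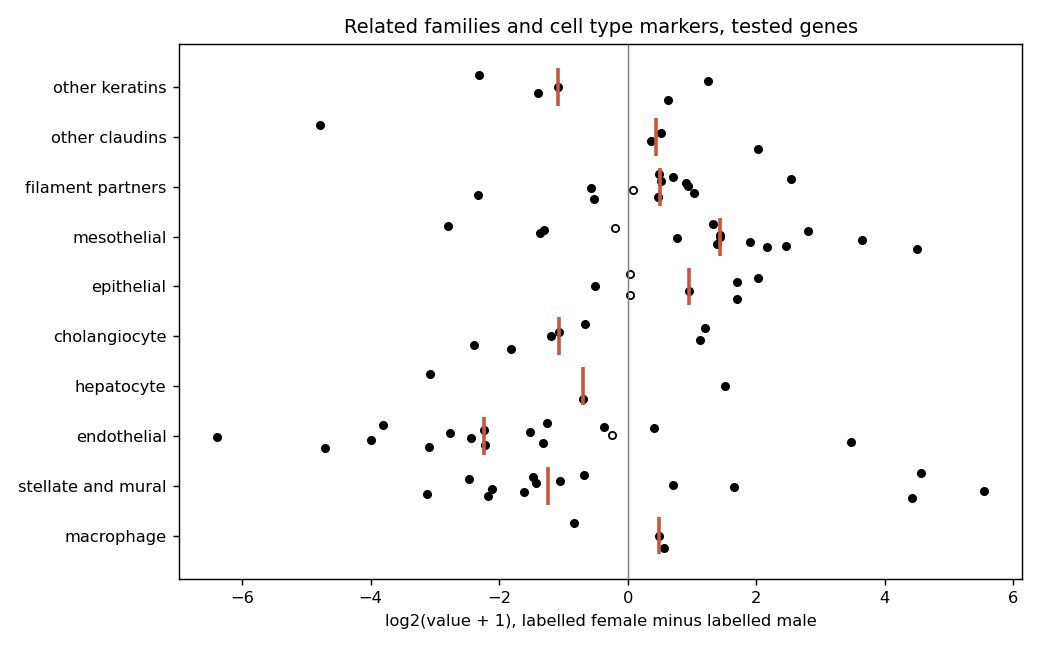
Log2 difference, labelled female minus labelled male (x axis), of the tested genes of each related family or cell type list (rows); filled points were called by limma, open points were not, and the red bar is the list's median. Genes that passed the filter through 1 group only are included. The median is highest for the mesothelial list (1.43) and lowest for the endothelial list (-2.23), against 0.01 for all tested genes.

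Of the 13595 genes, 25.8% have a false discovery rate under 0.05 in the authors' deposited table. For the 9 genes, the authors' deposited table gives signed fold changes of 17.1 for Msln, 120 for Wt1, 679 for Upk3b and 4.98 for Krt7, with false discovery rates of 0.000109, 0.000572, 0.000678 and 0.00628. Krt19 has -3.98 (false discovery rate 0.00952) and Cldn15 -68.2 in the authors' deposited table. Not under 0.05 in the authors' deposited table are Krt8 (2.38, false discovery rate 0.313), Krt18 (-1.93, 0.163) and Epcam (2.86, 0.386). Krt8 and Krt18 are thus called by limma here and not in the authors' deposited table. The value for Upk3b in the authors' deposited table is set against libraries labelled male with 0 reads.

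The tested gene whose log2 values ran most like each of the 8 was found over the 6 libraries, as a description with no test. Pearson's r was 0.9999 for Cldn15 with Podxl, 0.9998 for Krt19 with H2-T9, for Krt18 with Rnf152, for Msln with Tmem151a and for Wt1 with Styk1, and 0.9985 for Krt7 with Tmem63b. It was 0.995 for Upk3b with Inadl and 0.9948 for Krt8 with Tmsb15l. For Cldn15, 637 genes had an r above 0.99, and for Krt8 and Upk3b 8 and 10 genes did. The 6 points share the split between the groups, as they do for every gene that differs between them.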

How the data were processed

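Poly(A) RNA was sequenced in 6 libraries. The submitters' processing notes name Bowtie2, RSEM, edgeR and the build mm39, and versions and annotation are not given in the sources used here. Each library has a deposited column of normalized signal, the normalized read count. In it 100% of values are whole multiples (tolerance 0.02) of the value of 1 read, so reads could be recovered. The fold change score is the authors' signed fold change, per the file header. The p-value and false discovery rate columns are the authors' own.

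limma 3.58.1 in R 4.3.3 (eBayes with trend) was run on log2(value + 1) over the genes that reached a value of 1 in 3 or more libraries, with Benjamini-Hochberg adjustment over all tested genes and a threshold of 0.05, two-sided. Fold changes on this scale understate those of low genes. A list has no set test. The 9 genes and the lists were chosen with earlier results of these data known. Named in each list were the up to 3 called genes with the largest absolute log2 fold change. Other genes of the lists, such as Vim, Cdh1, Alb, Ttr, Cyp3a11, Ptprc and Pecam1, were named outside this rule. For each of the 9 that was tested, the gene most like it was named too. Lengths and shared 50-base words came from GENCODE M21, and promoter windows from RefSeq. Intervals and the floor of 3 reads cover counting error only. Alternatives were a pseudocount of 0.1, no filter on low values, a minimum of 10 reads in each library, median-ratio (RLE) size factors, edgeR 4.0.16 and DESeq2 1.42.0 on the recovered reads, the replicate block, and each library left out. The fits were tested on simulated reads, in which far fewer genes changed than were called here.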

Additional observations from a re-analysis of the deposited data

How the results depend on the processing

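All 65 log2 differences recomputed for Krt7, Krt8, Krt18, Krt19 and Msln kept their direction and side of the threshold. Wt1 and Upk3b fell under the filter without any 1 of the libraries labelled female and with at least 10 reads in every library, and are left out of these counts. Their log2 differences depended on the handling of values near 0: with a pseudocount of 0.1 they were 6.00 and 4.91, and under edgeR 6.89 and 9.31. Cldn15 was -6.17 with a pseudocount of 0.1, -6.13 under edgeR and -6.11 under DESeq2. Without male replicate 4, the library that stood apart, Krt8 was 0.72, Krt7 2.04, Krt19 -2.08 and Cldn15 -5.41. Ddx3y, not called, was -0.09, and ran from -0.21 to 0.13 with 1 library left out, the positive value being that without male replicate 5. The mean ratio of type I to type II keratins per kilobase was 224 and 21.2 (male, female), and 156 and 12.9 with coding length.

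The count of 8704 genes called was 8651 under edgeR on the recovered reads and 8558 under DESeq2, and ran from 7373 to 9113 with 1 library left out. With at least 10 reads in every library, which tests fewer genes, 2 of the other keratins and 2 epithelial genes were called. With no filter, 7 hepatocyte (6 lower) and 5 macrophage genes were called. With 1 library left out, calls ran from 3 to 4 for the other keratins, 9 to 14 for mesothelial and 2 to 4 for epithelial genes, where fewer genes pass the filter.

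With the replicate block 8314 genes were called, and the same 5 of the set. Deviations of same-numbered libraries had correlations of -0.09, -0.03 and -0.17 across genes. With 3 libraries per group, of which male replicate 4 stood apart, this cannot decide whether the numbers pair the libraries.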
